A study of Mus musculus with 6 samples.

Results

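The genes described are the mouse family of vascular endothelial growth factor (VEGF) ligands, their receptors and the neuropilin co-receptors, in cultured muscle stem cells treated with 11,12-EET. The members were chosen by gene name: the receptor tyrosine kinase genes Flt1, Kdr and Flt4, the neuropilin genes Nrp1 and Nrp2, and the ligand genes Vegfa, Vegfb, Vegfc, Vegfd and Pgf. All 10 are among the 55494 rows of the count table, and all 10 passed the filter on low counts that left 16097 genes. Muscle stem cells are the Pax7-positive cells that repair skeletal muscle, and 11,12-EET is an epoxyeicosatrienoic acid, a signalling lipid derived from arachidonic acid through cytochrome P450. Primary cells of wild-type mice were kept in culture for 2 days, either without EET (3 control libraries) or with 11,12-EET (3 EET libraries), and their poly(A) RNA was sequenced. No dose, control medium or way of purifying the cells is given in the sources used here. Nor do they say if replicates were separate mice or cultures, so standard errors cover the spread of these 6 libraries alone, and that spread may be technical.

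VEGF ligands are secreted dimers that bind receptor tyrosine kinases, found above all on endothelial cells, and drive the growth and survival of blood and lymphatic vessels. Kdr encodes VEGFR-2, the main signalling receptor for VEGF-A. Flt1 encodes VEGFR-1, which binds VEGF-A, VEGF-B and PlGF tightly but signals weakly and is also made as a soluble decoy, and Flt4 encodes VEGFR-3, the receptor for VEGF-C and VEGF-D. Neuropilins have no kinase domain, hold VEGF close to its receptors and also bind class 3 semaphorins together with plexins. In muscle, VEGF-A made by myogenic cells is known to act on nearby capillary endothelium.

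In these libraries all 5 receptor and neuropilin mRNAs were lower with EET, by 1.73-fold (Nrp1) to 2.33-fold (Flt4), while the ligands differed in both directions, mostly by less. Vegfa, by far the most abundant ligand mRNA, was 1.12-fold lower, and Vegfb and Pgf were 1.45-fold and 1.25-fold higher. The receptor and neuropilin mRNAs were still lower once the dependence of fold change on mRNA length and GC content was taken out, by 1.29-fold (Nrp2) to 1.74-fold (Flt4), whereas no ligand was then called. In bulk RNA, fewer cells of a type and less RNA per cell cannot be told apart. The summed level of endothelial marker genes was also lower in the EET libraries, at 338 to 348 CPM against 427 to 450 CPM (a gene's counts scaled to the size of the library). Of these 20 markers 10 were called lower and 3 higher as counted, where 23.3% and 24.6% of all tested genes were. Schwann cell, fibro-adipogenic and pericyte marker sums were lower as well, macrophage sums overlapped, and lymphatic and muscle stem cell sums were higher. Single abundant genes weigh on such sums. Most of the lymphatic sum was Pdpn, while 2 of the 3 tested lymphatic markers were called lower. Among macrophage markers Lyz2 was at 283 CPM in EET replicate 1, against 145 and 128 in replicates 2 and 3. With length and GC taken out, the macrophage list had the most negative median log2 fold change, −0.67. The part of any of these cells in the receptor values was not tested.

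The family was proposed with results of this comparison known, the falls of Flt1 and Kdr above all. Its fold changes and calls are therefore a description, given with standard errors and without p-values, and they support nothing beyond themselves. A gene is called here when its adjusted p (edgeR quasi-likelihood test over all 16097 genes, Benjamini-Hochberg) is under 0.05. Of the 10 members 8 were called, where 47.9% of all tested genes were: 6 lower (23.3% of all) and 2 higher (24.6% of all). The EET and control libraries did not overlap for 7 members, as for 57.7% of all tested genes. EET was wholly below for 6 (28.0% of all) and wholly above for 1, Vegfd (29.6%). With the length and GC dependence taken out 5 members were called, all lower, where 32.3% of all genes were called, 17.1% lower and 15.2% higher.

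Library totals ran from 30371291 to 37243882 counts and overlapped between the groups. Long mRNAs were lower and short ones higher in the EET libraries. Per doubling of mRNA length, a library's level relative to the mean of all 6 changed by 0.11 to 0.25 log2 units in the controls and by −0.27 to −0.11 in the EET libraries. EET replicate 3 and control replicate 1 had the flattest slopes of their groups. Of 1150 tested protein-coding mRNAs of 6000 to 8000 bp, 70.6% were called lower, and of 3275 under 2000 bp, 65.6% were called higher. The receptors have longer mRNAs than the ligands, so each fold change below is given as counted and again after the length and GC dependence of every library was subtracted (trend removed), which makes it relative to mRNAs of like length and composition. The labelled cell type had its markers: Pax7 had 114 ± 4.71 CPM in the control group and 83.5 ± 1.64 in the EET group, and Myod1, a myogenic transcription factor, 977 ± 42.4 and 1159 ± 13.9 CPM (TMM-scaled, mean ± SD over n = 3 libraries).

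The promoters of Flt1 and Kdr are shown because these receptor genes, which lie on the minus strand of chromosome 5, kept a nearly constant ratio of levels, as counted, across the 6 libraries. The ratio of Kdr to Flt4, a gene on chromosome 11, was nearly constant as well, so this trait is not particular to the pair. Each line holds the 250 bases before the RefSeq transcription start (build GRCm38.p6), 5′ to 3′ on the strand of the gene, with capitals for the GC box GGGCGG on either strand and for the TATA box TATAAA. The windows are chr5:147726012-147726261 for Flt1 and chr5:75978456-75978705 for Kdr.
Flt1: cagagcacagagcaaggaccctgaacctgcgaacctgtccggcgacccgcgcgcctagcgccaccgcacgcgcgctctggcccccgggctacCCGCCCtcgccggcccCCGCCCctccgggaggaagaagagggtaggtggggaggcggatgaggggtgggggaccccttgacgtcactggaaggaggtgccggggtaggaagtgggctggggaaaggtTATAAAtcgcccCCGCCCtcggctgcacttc
Kdr: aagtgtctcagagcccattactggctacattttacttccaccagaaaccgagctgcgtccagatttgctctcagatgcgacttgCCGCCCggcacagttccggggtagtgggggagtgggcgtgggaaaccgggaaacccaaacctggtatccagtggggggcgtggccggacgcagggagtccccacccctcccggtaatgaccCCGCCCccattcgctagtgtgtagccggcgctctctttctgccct
The Flt1 window holds 3 GC boxes and 1 TATA box, and the Kdr window 2 GC boxes and no TATA box. RefSeq promoters were matched for all 10 members, 12 windows in all, since Vegfa and Pgf have 2 starts each. A GC box, the letters that Sp1-family factors bind, stood in 10 of the 12 windows and in 32.7% of 32851 windows of the same length over all genes. All 5 receptor and neuropilin genes and 4 of the 5 ligand genes, all but Vegfd, had 1 or more, so the motif did not separate receptors from ligands. Apart from Vegfd (42.4% GC), the member windows had 59.2% to 76.4% GC, where the median of all windows was 52.4%. Windows of like GC content were not compared, so a trait of the family cannot be told apart here from base composition. The hypoxia response core, searched as ACGTG and GCGTG on both strands, gave ACGTG in 1 window, the downstream start of Vegfa (16.6% of all windows), and GCGTG in 7 (28.2% of all). The ETS-type letters CCGGAAG stood in 0 of the 12 windows and in 6.91% of all. Matches are letters in a short window and no sign of binding.

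Kdr, at 75932827 to 75978458 on chromosome 5 (GENCODE M21, GRCm38), is the most abundant of the receptor kinase mRNAs here. It was at 46.7, 54.8 and 51.3 CPM in control replicates 1 to 3 and at 20.1, 21.1 and 26.3 CPM in EET replicates 1 to 3. All 3 EET libraries were below all controls, and EET replicate 3 was nearest to them. The difference was −1.18 ± 0.11 (log2 fold change ± SE), a 2.26-fold lower level, or −0.74 ± 0.07 with the trend removed.

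Flt1, at 147561604 to 147726011 on the same chromosome, was at 28.6, 30.6 and 31.4 CPM in the controls and at 13.2, 12.2 and 15.1 CPM with EET. Again no EET library reached the controls, and replicate 3 was the highest of the EET libraries. Its difference of −1.16 ± 0.10 was 2.23-fold, or −0.62 ± 0.08 with the trend removed. The count per gene cannot tell the membrane receptor from the soluble decoy form, which share their first exons.

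Flt4 (chromosome 11, 49609263 to 49652739, plus strand) had the lowest level of the 3. It was at 9.25, 9.72 and 9.89 CPM in the controls and at 3.71, 3.84 and 4.82 CPM with EET. The controls lay close together and all above the EET libraries, with EET replicate 3 once more nearest to them. The difference was −1.22 ± 0.15, or −0.80 ± 0.14 with the trend removed, the most negative of the 10 members in both fits.

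**Figure D1:**
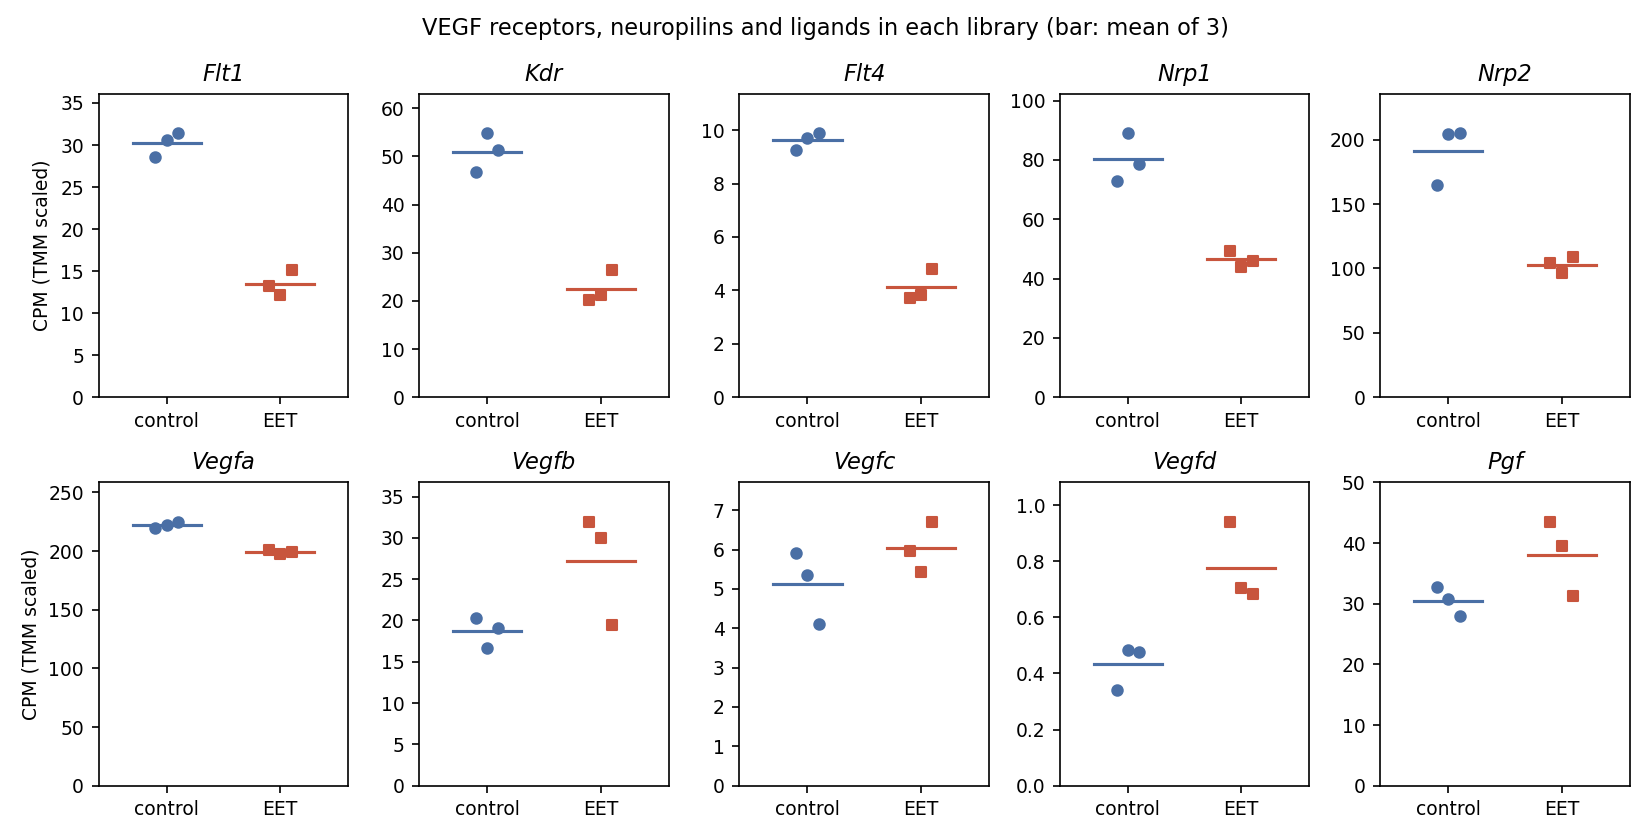
Level of each of the 10 genes in CPM (TMM scaled, linear axes from 0), with 1 point per library (blue circles, control; red squares, EET) and a bar at the mean of 3. Receptors and neuropilins in the upper row have all EET points below all control points, and among the ligands in the lower row Vegfa does too while Vegfb, Vegfc and Pgf overlap.

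As counted, the 3 receptor mRNAs changed nearly in proportion. Within each library the ratio of Kdr to Flt1, both per kilobase of mRNA, was 1.90, 2.09 and 1.90 in the controls and 1.77, 2.02 and 2.02 with EET, so the groups overlapped. The ratio of Kdr to Flt4 was 5.59 ± 0.327 in the controls and 5.77 ± 0.0449 with EET (mean ± SD, n = 3 each) and overlapped as well. Kdr made up 59.2 ± 1.31% of the summed receptor level in controls and 59.1 ± 1.46% with EET, Flt1 30.2 ± 0.952% and 30.6 ± 1.64%, and Flt4 10.6 ± 0.383% and 10.3 ± 0.185%. The makeup of the receptor pool in these libraries was thus nearly constant as counted, while its summed level was 14.5 ± 0.906 CPM per kilobase in controls and 6.42 ± 0.856 with EET. These shares and ratios have no trend removed. With it removed the log2 fold changes were −0.62 (Flt1), −0.74 (Kdr) and −0.80 (Flt4).

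Patterns over the 6 libraries were compared as log2 CPM centred on each gene's control mean, by the root mean square difference, among 11150 other protein-coding genes of at least 2 CPM. For Kdr the nearest gene was Flt4, at a difference of 0.058 log2 units, followed by Pak3 and Myh11 (0.069 and 0.076), and Flt1 ranked 5 (0.080). For Flt1 the nearest were Cmip, Pak3 and Asxl3 (0.034, 0.065 and 0.074), with Flt4 ranked 4 and Kdr 6. The neuropilins were farther off, Nrp2 ranking 192 and Nrp1 475 from Flt1. For Nrp1 the nearest genes were Igsf3, Ebf2 and Tent5a (0.051, 0.056 and 0.060), and Nrp2 ranked 93. With 2 groups of 3 libraries this likeness mostly measures the size of the difference between the groups.

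As counted, the neuropilin genes were lower by less than the receptor kinase genes. With the trend removed Nrp1 was more negative than Flt1 where the longest coding transcript gave the length, but not with summed exon length. Nrp1 (chromosome 8, 128358604 to 128503363, plus strand) was at 73.0, 89.1 and 78.6 CPM in the controls and at 49.3, 44.0 and 46.1 CPM with EET. The controls were spread more widely than the EET libraries, and the groups did not overlap. Its difference was −0.79 ± 0.09, or −0.68 ± 0.07 with the trend removed. The longest coding transcript annotated for Nrp1 has 3597 bp, and all its annotated exons together 9785 bp. With that summed exon length in the trend, an alternative added after seeing the data, the difference was −0.38 and still called. Flt1 stayed at −0.62 to −0.60 in the alternatives with the trend removed. The size of the corrected Nrp1 value and its order with Flt1 thus depend on the length assumed.

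Nrp2 (chromosome 1, 62703285 to 62818695, plus strand) was the most abundant receptor gene of the family. It was at 165, 204 and 205 CPM in the controls and at 104, 96.8 and 109 CPM with EET. Control replicate 1 was well below the other controls but above every EET library. The difference was −0.89 ± 0.09, and with the trend removed −0.37 ± 0.05, the smallest corrected value among the 5 receptor genes. Per kilobase the ratio of Nrp2 to Nrp1 was 1.28 ± 0.103 in the controls and 1.19 ± 0.067 with EET, and the groups overlapped. Class 3 semaphorins and their plexins, which use the same neuropilins, were mostly lower as counted. Of 12, 10 were called lower and 0 higher, where 23.3% and 24.6% of all tested genes were. Their median log2 fold change was −0.49, where the median of all tested genes was 0.005. Their mRNAs are long, with a median of 6584 bp, and 70.6% of all coding mRNAs of 6000 to 8000 bp were called lower. With the trend removed 2 were lower (17.1% of all genes), 0 higher (15.2%), and the median was −0.13. Plxna4 and Plxna2, the plexin genes with the smallest p of that group, were at −1.05 ± 0.13 and −0.69 ± 0.09, or −0.41 (called) and −0.05 (not called) with the trend removed.

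**Figure D2:**
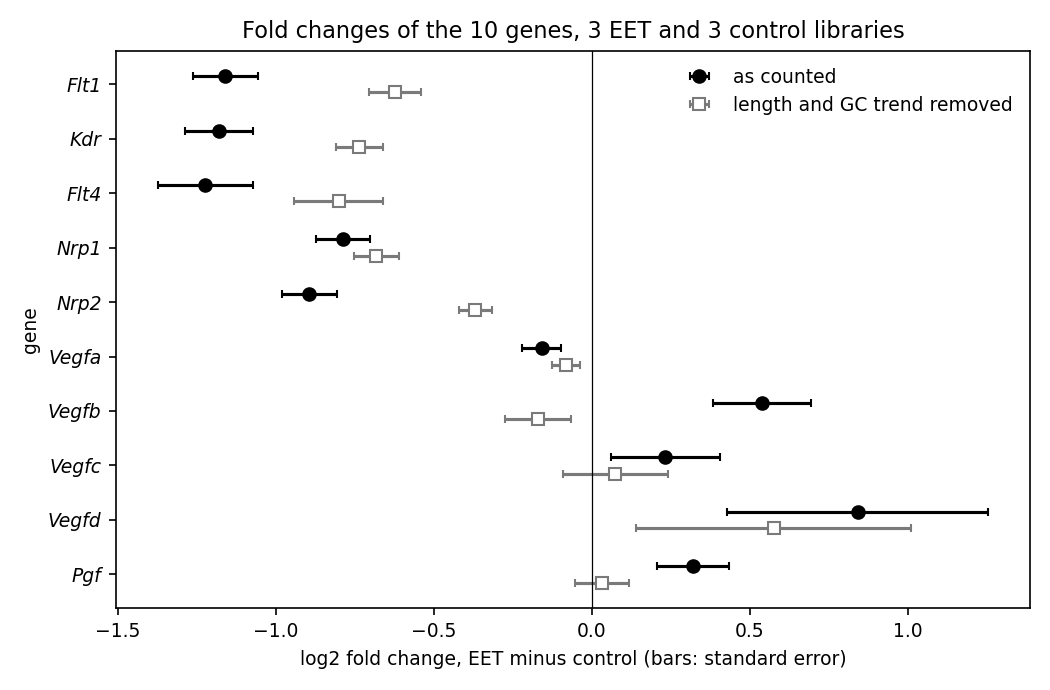
Log2 fold change of EET minus control for each gene (points) with standard errors (bars), as counted (filled circles) or trend removed (open squares). The 5 receptor and neuropilin genes lie to the left of 0 in both, and the ligands move toward 0 with the trend removed, Vegfb from 0.54 to −0.17.

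Vegfa (chromosome 17, 46016993 to 46032369, minus strand) encodes the main angiogenic ligand and was the most abundant member of the family. It was at 220, 222 and 225 CPM in the controls and at 201, 198 and 199 CPM with EET. Both groups were tight and did not overlap, so a small difference of −0.16 ± 0.06 was called. With the trend removed it was −0.08 ± 0.04 and not called, and with the summed exon length in that trend −0.19 and called. The call was also lost in 5 of the 6 fits that leave out 1 library, all but the one without EET replicate 3, at values of −0.16 (without control replicate 2), −0.15 (without control replicate 3 or EET replicate 2), −0.16 (without EET replicate 1) and −0.17 (without control replicate 1).

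Pgf (chromosome 12, 85166635 to 85177790, minus strand) encodes placental growth factor, which among the VEGF receptor kinases binds VEGFR-1 alone. It was at 32.8, 30.8 and 27.9 CPM in the controls and at 43.5, 39.5 and 31.3 CPM with EET. EET replicate 3 lay among the controls while the other EET libraries were above them. The difference of 0.32 ± 0.11 was called, but not without control replicate 2 (0.33) or 3 (0.26) or EET replicate 1 (0.21) or 2 (0.30), and with the trend removed it was 0.03 ± 0.09.

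Vegfb, another ligand of VEGFR-1, (chromosome 19, 6982473 to 6987651, minus strand), has the shortest mRNA of the family, 1281 bp. It was at 20.3, 16.6 and 19.1 CPM in the controls and at 32.0, 30.0 and 19.5 CPM with EET. Here too EET replicate 3 stood with the controls. The difference of 0.54 ± 0.16 was called as counted, not called without EET replicate 2 (0.46), and turned to −0.17 ± 0.10, not called, with the trend removed.

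The ligands of VEGFR-3 were scarce. Vegfc (chromosome 8, 54077606 to 54187096, plus strand) was at 5.91, 5.36 and 4.10 CPM in the controls and at 5.96, 5.44 and 6.71 CPM with EET. The groups overlapped, and the difference of 0.23 ± 0.17 was not called. Vegfd (chromosome X, 164373378 to 164402650, plus strand) was near the limit of detection, with 13, 18 and 15 counts in the controls and 33, 22 and 22 with EET. Its EET libraries lay above the controls, at 0.776 ± 0.143 against 0.434 ± 0.080 CPM, but at so few counts the difference of 0.84 ± 0.41 was not called, nor that of 0.58 ± 0.43 with the trend removed.

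Levels of different genes can be compared only per length. In control libraries the order by CPM per kilobase of the longest coding mRNA was Vegfa (64.4 ± 0.753), Nrp2 (28.5 ± 3.42), Nrp1 (22.3 ± 2.27), Pgf (14.7 ± 1.18), Vegfb (14.6 ± 1.48), Kdr (8.60 ± 0.691), Flt1 (4.38 ± 0.211), Vegfc (2.09 ± 0.379), Flt4 (1.54 ± 0.0531) and Vegfd (0.212 ± 0.0389). Nrp2 overlapped with Nrp1 and Pgf with Vegfb between control libraries, and every other pair of neighbours was separate. Among 13809 tested protein-coding genes Vegfa stood at percentile 93.3 of this measure, Kdr at 56.0 and Flt4 at 26.3, so the receptor kinase mRNAs were of middling to low level in a culture labelled as muscle stem cells. Taken over all annotated exons, Nrp1 was at 8.20 CPM per kilobase, below Vegfb (11.7) and Pgf (10.5), so the place of Nrp1 in the order depends on the length used.

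**Figure D3:**
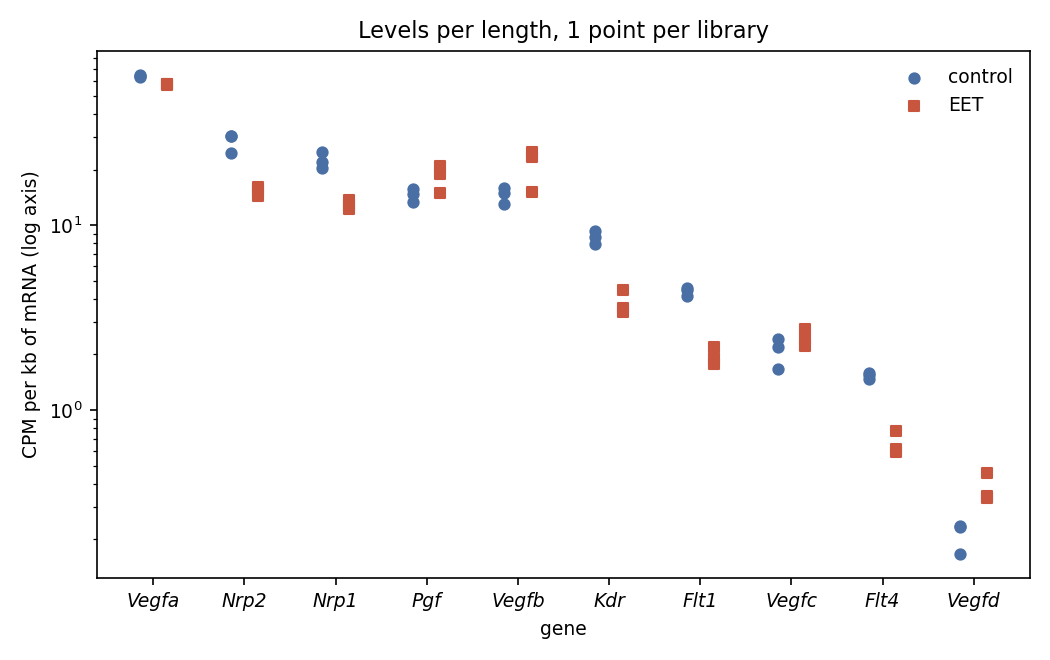
CPM per kilobase of mRNA on a log axis, with 1 point per library (blue circles, control; red squares, EET), ordered by the control mean. Vegfa is the highest in every library, and in the EET libraries the points of Pgf and Vegfb lie within or above those of Nrp2.

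Ligand and receptor levels were set against each other within each library. The ratio of Vegfa to Kdr per kilobase was 8.09, 6.96 and 7.53 in the controls and 17.2, 16.1 and 13.0 with EET. It did not overlap between the groups and was lowest among EET libraries in replicate 3. The ratio of summed ligands to summed receptor kinases was 6.64 ± 0.548 in controls and 15.9 ± 3.14 with EET, although the summed ligand level overlapped, at 96.0 ± 1.72 and 100 ± 8.18 CPM per kilobase. Vegfa supplied 67.1 ± 1.81% of the summed ligand level in controls and 57.9 ± 4.81% with EET. These ratios set long receptor mRNAs against shorter ligand mRNAs and are as counted, with no trend removed.

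**Figure D4:**
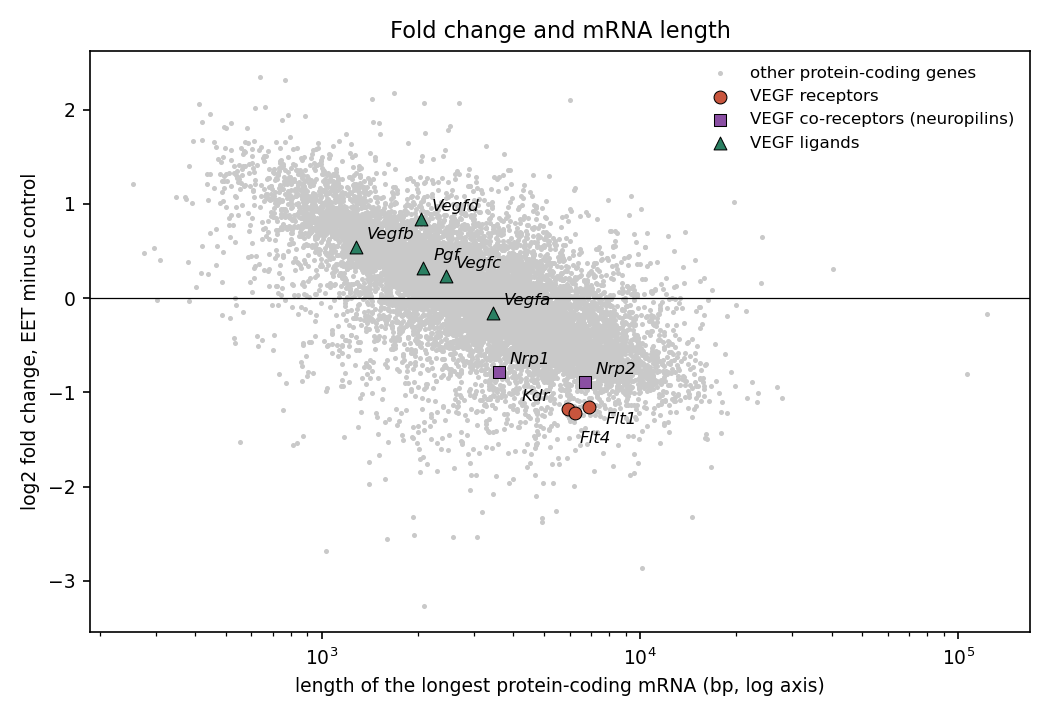
Log2 fold change of EET minus control against the length of the longest protein-coding mRNA (log axis) for tested protein-coding genes (grey), with the VEGF receptors (circles), neuropilins (squares) and ligands (triangles) marked. Grey points slope downward with length, ligands lie within that band, and the receptor kinases and Nrp1 lie toward its lower edge.

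Over the 10 members the log2 fold change followed mRNA length with a Spearman rho of −0.89 (−0.68 with the trend removed), and over 13809 protein-coding genes with −0.68, as descriptions across genes measured in the same libraries. Lengths ran from 1281 bp (Vegfb) to 6895 bp (Flt1). As counted, 1.41% (Flt4) to 6.26% (Nrp1) of protein-coding genes had a fold change below that of a receptor or neuropilin gene. With the trend removed these shares were 3.91% for Flt4, 4.59% for Kdr, 5.32% for Nrp1, 6.09% for Flt1 and 13.2% for Nrp2. For the ligands they ran from 28.7% (Vegfb) to 94.2% (Vegfd), and 0 of the 5 ligands were called. Because the falls of Flt1 and Kdr were known when the family was proposed, these shares are no evidence that its receptors stand out.

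Other receptor tyrosine kinase genes gave a comparison within the same protein class. Of 40 tested, 24 were called lower and 3 higher (1 without control replicate 2), where 23.3% and 24.6% of all tested genes were. Their median was −0.38. Their median mRNA length was 4735 bp, and 49.1% of coding mRNAs of 4000 to 6000 bp were called lower. With the trend removed 10 were lower and 5 higher, where 17.1% and 15.2% of all tested genes were, with a median of −0.06. None of the 40 had a fold change as counted below those of Flt1, Kdr and Flt4. With the trend removed Kit, the stem cell factor receptor, at −0.68, was the only one below Flt1, and none was below Kdr or Flt4. The family was proposed with the falls of Flt1 and Kdr known, so these places among the 40 are a description only. Pdgfrb and Egfr, the receptors of PDGF and EGF with the smallest p among the 40, were at −0.64 ± 0.07 and −0.69 ± 0.08, or −0.28 (called) and −0.09 (not called) with the trend removed.

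Endothelial cells are the main site of Flt1, Kdr and Flt4 expression, and their markers were measurable in every library. The summed level of 20 endothelial markers was 427 to 450 CPM in the controls and 338 to 348 CPM with EET, and none of the 20 was at 0. Of these, 10 were called lower and 3 higher, where 23.3% and 24.6% of all tested genes were. Their median was −0.36, where that of all tested genes was 0.005. With the trend removed 13 were lower and 0 higher, where 17.1% and 15.2% of all tested genes were, at a median of −0.38. Cdh5, which encodes VE-cadherin, fell from 81.5 ± 5.65 to 41.6 ± 4.35 CPM (−0.97 ± 0.09, or −0.80 ± 0.07 with the trend removed), and Pecam1, which encodes CD31, from 76.9 ± 2.49 to 50.4 ± 3.42 CPM (−0.61 ± 0.08, or −0.54 ± 0.06). The 3 endothelial markers called higher as counted, Ramp2, Egfl7 and Ecscr, have short mRNAs of 1178, 1391 and 1114 bp and were not called with the trend removed (0.07, −0.06 and −0.29). Ptprb, a phosphatase of endothelial junctions, had the lowest value as counted (−1.34), and Sox17, an arterial transcription factor, the lowest with the trend removed. Eng, at the highest control level of the 20, was at 98.1 ± 5.84 and 90.8 ± 5.53 CPM (−0.11, or −0.06) and called in neither fit. It was 1 of 7 markers not called as counted, with Emcn, Esam, Cldn5, Plvap, Sox18 and Icam2 (−0.19 to 0.10). Emcn was not called with the trend removed either, whereas Esam, Cldn5, Plvap, Sox18 and Icam2 were then called lower.

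**Figure D5:**
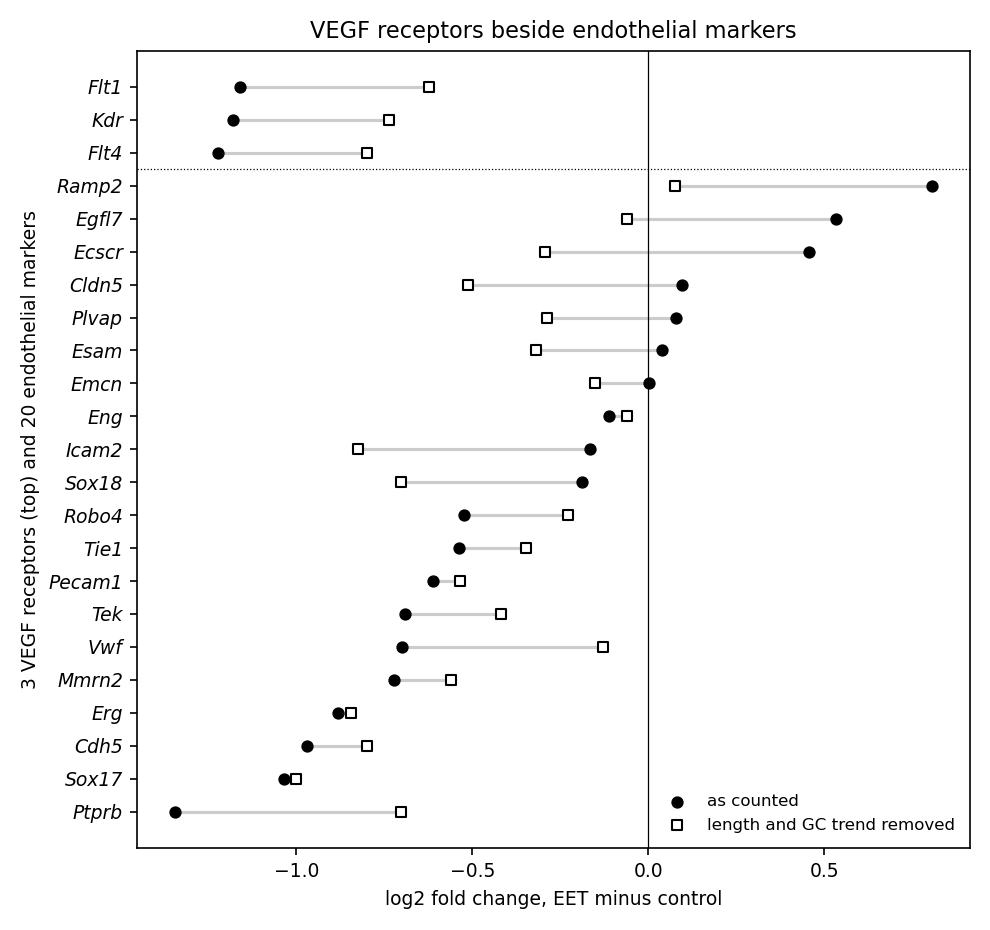
Log2 fold change of EET minus control for the 3 VEGF receptors (top) and 20 endothelial markers (below the dotted line), as counted (filled circles) or trend removed (open squares). All 3 receptors and 19 of 20 markers lie below 0 with the trend removed.

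Markers of other cell types were present as well. Over all tested genes 23.3% were called lower and 24.6% higher, or 17.1% and 15.2% with the trend removed. Of 3 tested lymphatic endothelial markers 2 were called lower and 1 higher (trend removed, 1 and 0). Of these 1 was lower without control replicate 2 or 3 or EET replicate 1 or 3, and 0 were higher without control replicate 3 or EET replicate 1. Of the 5 listed, Ccl21a had no count in any library and Lyve1 had at most 0.368 CPM. Summed, they were at 490 to 516 CPM in controls and 518 to 581 CPM with EET, most of it Pdpn, a gene other cells also express (0.25 ± 0.07, or −0.11 and not called with the trend removed); Reln was at −1.03 ± 0.13, or −0.39. Fibro-adipogenic markers, 10 in number, summed to 474 to 479 CPM in controls and 437 to 445 CPM with EET, with 2 called lower and 1 higher (4 and 0 with the trend removed). None was higher without control replicate 1 or 2 or EET replicate 1 or 2. Their gene with the smallest p, Col15a1, was at −1.38 ± 0.12 and Pdgfra at −0.58 ± 0.08. Pericyte and smooth muscle markers summed to 384 to 402 and 340 to 364 CPM, with 5 of 8 tested lower and 2 higher (3 and 0), 2 becoming 1 without control replicate 1 and 0 without control replicate 2 or 3 or EET replicate 1 or 2, Cspg4 being at −0.82 ± 0.10. Macrophage and leukocyte markers summed to 314 to 343 and 203 to 390 CPM, with 2 of 9 lower and 0 higher (5 and 1). Ptprc and Csf1r were at −0.98 ± 0.15 and −0.58 ± 0.13, or −0.67 (called) and −0.31 (not called) with the trend removed. EET replicate 1 stood apart in these markers: Adgre1, a macrophage surface gene, was at 23.2, 5.47 and 7.52 CPM in EET replicates 1 to 3, and Lyz2, the lysozyme gene, at 283, 145 and 128 CPM. Without that library 4 of the 9 were called lower, and 1 was called higher without EET replicate 3. Schwann cell markers summed to 394 to 396 and 304 to 329 CPM, with 4 of 6 lower and 1 higher (3 and 0), Ngfr and Sox10 being at −0.51 ± 0.07 and −0.33 ± 0.08. Only 2 of the 6 were called lower without control replicate 1, control replicate 3 or EET replicate 1, and 2 were called higher without EET replicate 1. Muscle stem cell and myoblast markers summed to 4146 to 4441 and 4732 to 4847 CPM, with 3 of 11 lower and 5 higher (2 and 2), Megf10 being at −0.64 ± 0.09. Of these 3 were called higher without control replicate 3 or EET replicate 2. With the trend removed the median log2 fold change was −0.67 for the macrophage and leukocyte markers, more negative than the −0.38 of the endothelial markers, −0.27 for pericyte and smooth muscle, −0.23 for Schwann cell, −0.11 for lymphatic, −0.07 for fibro-adipogenic and −0.03 for muscle stem cell and myoblast markers. Neuropilins are also expressed outside the endothelium, and the part of these other cells in their values was not tested.

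Genes that act downstream of the receptors were called in both directions. Of 42 tested genes of VEGF receptor signalling, from phospholipase C gamma through the Ras, PI3K, Src and calcineurin branches, 14 were called lower and 10 higher, where 23.3% and 24.6% of all tested genes were, and 18 were not called. The median was −0.10. With the trend removed 9 were lower and 11 higher, where 17.1% and 15.2% of all tested genes were, with a median of −0.02. Hras, a small GTPase of the MAP kinase branch, rose from 38.6 ± 3.59 to 78.7 ± 10.2 CPM (1.03 ± 0.10, or 0.96 ± 0.08), and Pik3r1, the regulatory subunit of PI3K, was at −0.66 ± 0.09, or −0.15 and not called. Of 24 genes of receptor traffic and membrane partners 13 were lower and 5 higher, with a median of −0.35, or 8 and 3 with the trend removed (median −0.09). Besides Cdh5, Hspg2, the gene of the heparan sulfate proteoglycan perlecan, was at −0.98 ± 0.10, or −0.55 ± 0.16 and not called.

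Matrix and protease genes that bind or process VEGF were mostly lower in both fits. Of 20 genes, 13 were called lower and 1 higher (0 without control replicate 2 or 3 or EET replicate 1 or 2), with a median of −0.28. With the trend removed 14 were lower and 0 higher, again with a median of −0.28. The shares over all tested genes were 23.3% lower and 24.6% higher, or 17.1% and 15.2% with the trend removed. Fn1, the gene of fibronectin, which binds VEGF, was at −1.10 ± 0.09, or −0.48 ± 0.05. Thbs2, a thrombospondin that restrains angiogenesis, fell from 159 ± 7.40 to 93.1 ± 4.90 CPM (−0.77 ± 0.07, or −0.33 ± 0.05).

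Regulators of Vegfa, not all of them specific to low oxygen, were split. Of 13 tested, 7 were called lower and 5 higher, where 23.3% and 24.6% of all tested genes were, with a median of −0.30. With the trend removed 2 were lower and 3 higher, where 17.1% and 15.2% of all tested genes were (median 0.10). Hif1a, the oxygen-regulated subunit of the factor that induces Vegfa, was at −0.30 ± 0.07, or −0.07 and not called with the trend removed, while Epas1 and Arnt, its paralogue and its partner, were at −0.65 ± 0.09 and −0.50 ± 0.08, or −0.26 and −0.27, both called. Among 22 hypoxia target genes 6 were lower and 6 higher (median −0.01), or 6 and 3 with the trend removed (median −0.08). Higd1a, a mitochondrial protein gene, rose from 11.0 ± 0.401 to 25.7 ± 3.48 CPM (1.23 ± 0.11) and was called higher in both fits, and Pfkfb3, which drives glycolysis, was at −0.57 ± 0.09, or −0.27 ± 0.09. For these targets the shares called as counted are near those over all tested genes.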

How the data were processed

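The authors deposited raw, unnormalized counts for each gene symbol in 3 control and 3 EET libraries. Per the submitters' processing notes, FastQC, cutadapt, DESeq2 and GRCm38 were used. The sources used here give no aligner, counting tool, strand setting or annotation. Counts of 11 to 50 were even in 61.3% to 65.6% of cases, so mates of a fragment may have been counted apart for some genes, and divided-by-2 counts were fitted as an alternative. Every pair of libraries differed beyond counting noise (chi-square per gene at least 5.93). Groups came from the sample titles.

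The whole table was fitted without a block by edgeR 4.0.16 under R 4.3.3, using filterByExpr, TMM factors, robust glmQLFit and glmQLFTest. Standard errors are the log2 fold change over the square root of F. Lengths, GC content and positions came from GENCODE M21 (GRCm38, 53365 rows matched by symbol). For the trend, deviations from the mean library were smoothed on log2 mRNA length and GC (robust loess, span 0.3) and entered as offsets. The pipeline was tested on simulated counts. DESeq2 1.42.0 was an alternative, with other scalings, filters, a replicate block and left-out libraries.

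The members, gene lists and alternatives were chosen with earlier results of these data known. Beside the members, the text names the 2 tested genes with the smallest p in each list, the 3 genes nearest in pattern to Flt1, Kdr and Nrp1, and Pax7, Myod1, Pecam1, Cdh5 and Hif1a. Kit, Ptprb, Sox17, Ramp2, Egfl7, Ecscr, Eng, Emcn, Esam, Cldn5, Plvap, Sox18, Icam2, Ccl21a, Lyve1, Adgre1 and Lyz2 were named after their values were seen.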

Additional observations from a re-analysis of the deposited data

How the results depend on the processing

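The 5 receptor and neuropilin genes were called lower under all 17 alternatives. Without removal of the length and GC trend their log2 fold changes ran from −1.39 to −0.71, and with it from −0.94 to −0.37. The ligands were less stable. Of the 2 ligands called higher, 1 was with library totals as the scaling and 0 with the trend removed, also with the replicate block and with the summed exon length. Leaving out 1 library each gave 0 to 2 called higher, each fit having 1 library fewer. Without the filter Vegfa was not called (5 members lower). Vegfb reversed to −0.17 with the trend removed, −0.18 with the replicate block added and −0.12 with the summed exon length, which also turned Vegfc to −0.057. Over all genes 3967 were called higher, against 2453 with the trend removed and 2553 with the replicate block added. Library totals gave 3418 higher and 4349 lower, against 3967 and 3749.

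The replicate block changed no call of a member and gave 4238 genes higher and 4083 lower. Libraries with the same number did not deviate together (correlations −0.023, −0.049 and −0.0017). These deviations also carry the length slope of each library, so they cannot decide if the numbers pair the libraries. Vegfd had the fewest counts of the members, 13 to 33 a library, and the largest standard error (0.41).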
